A study of Mus musculus with 4 samples.

Results

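The genes described here encode splicing factors and other RNA-binding proteins. They were chosen by name alone, as every gene of the deposited table whose symbol begins with Srsf, Hnrnp, Sf3a, Sf3b, Rbm and a digit, Mbnl, Celf, Prpf, Snrp, Ddx, Dhx, Rbfox, Khdrbs or Igf2bp, or is Qk. That gave 52 of the 3760 listed genes. They were measured by RNA sequencing in myoblasts cultured from the skeletal muscle of adult C57BL/6 mice and labelled as Twist2-positive. All 4 groups received a retrovirus for 24 h and then growth medium for 24 h: GFP growth medium carried green fluorescent protein and was harvested at that point with 20% serum, GFP differentiation medium carried the same virus and spent 5 days in 2% horse serum, and the Twist2 growth medium and Twist2 differentiation medium groups carried Twist2 together with GFP (Twist2-IRES-GFP) and were otherwise handled alike. Every group had 1 library, so no difference has a replicate check, no p-value is given, and the library and the condition cannot be told apart. The labels do not say how many mice or cultures stand behind a library.

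Pre-mRNA splicing is carried out by the spliceosome, in which small nuclear RNAs dressed with Sm proteins assemble on each intron together with the PRPF and SF3 factors. SR proteins mostly favour the use of an exon and many hnRNP proteins disfavour it, and DEAD- and DEAH-box helicases (Ddx and Dhx genes) remodel RNA at this and other steps. Skeletal muscle is known for its large set of tissue-specific exons, which are set by regulators such as the Mbnl, Celf, Rbfox, Rbm20, Rbm24 and Qk proteins. The table gives RNA levels of whole genes, so it shows how much of a regulator's RNA was present and nothing of which exons were used.

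The 3 members with the most muscle-specific known role whose RNA was at least 2-fold higher in differentiated GFP cells were Rbm24, Rbfox1 and Rbm38, and their promoters are printed here because these genes moved together. Each line is a RefSeq window (GRCm38.p6) from 250 bases before to 50 bases after an annotated start, on the strand of the gene, 5′ to 3′, with every E-box (CANNTG, the class of site bound by bHLH factors such as Myod1, Myog and Twist2) in capitals. Rbm24 lies at chr13:46418050-46418349, Rbm38 at chr2:173021652-173021951, and Rbfox1 has windows at chr16:5884543-5884842 (first start) and chr16:7069585-7069884 (second start), all on the plus strand.
Rbm24: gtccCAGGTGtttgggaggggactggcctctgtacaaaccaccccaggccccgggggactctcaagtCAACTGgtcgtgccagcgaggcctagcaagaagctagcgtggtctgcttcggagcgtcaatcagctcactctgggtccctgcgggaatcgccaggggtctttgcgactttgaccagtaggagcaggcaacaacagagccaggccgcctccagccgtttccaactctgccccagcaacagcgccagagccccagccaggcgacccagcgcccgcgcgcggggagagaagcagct
Rbm38: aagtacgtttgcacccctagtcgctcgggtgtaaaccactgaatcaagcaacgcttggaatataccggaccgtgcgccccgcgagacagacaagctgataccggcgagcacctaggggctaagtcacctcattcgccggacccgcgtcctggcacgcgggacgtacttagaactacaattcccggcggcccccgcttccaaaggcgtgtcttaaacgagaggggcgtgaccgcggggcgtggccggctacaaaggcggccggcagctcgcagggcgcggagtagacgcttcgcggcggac
Rbfox1 first start: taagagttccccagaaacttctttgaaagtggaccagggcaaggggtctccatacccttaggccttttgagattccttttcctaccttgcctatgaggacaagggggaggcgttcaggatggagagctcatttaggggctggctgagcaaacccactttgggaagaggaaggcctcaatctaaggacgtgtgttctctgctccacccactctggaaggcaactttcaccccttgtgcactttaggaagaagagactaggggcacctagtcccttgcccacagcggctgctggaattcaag
Rbfox1 second start: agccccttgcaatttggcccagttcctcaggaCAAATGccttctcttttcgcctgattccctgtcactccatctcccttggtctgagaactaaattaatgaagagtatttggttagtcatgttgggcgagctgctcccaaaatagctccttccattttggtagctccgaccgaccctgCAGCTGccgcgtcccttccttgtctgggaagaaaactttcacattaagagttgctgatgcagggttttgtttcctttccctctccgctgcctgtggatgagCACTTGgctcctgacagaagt
The window of Rbm24 held 2 E-boxes, that of Rbm38 held 0, and those of Rbfox1 held 0 and 3, of which 1 was the hexamer CAGCTG. RefSeq windows were found for 42 of the 52 members, 62 windows in all. An E-box on either strand was present in 37 of these windows (59.7%) and in 72.3% of all 32851 windows. Of its special forms, CAGCTG was in 3 member windows (4.84%) against 16.3% of all windows, and the form CATATG was in 0 against 3.91%. The search for the MEF2 motif allowed any base in the core, where the motif has only A or T, so it was looser than that motif. It matched 2 member windows (3.23%, against 3.69% of all), and the E2F motif was found in 0 (against 0.813%). These are matches of letters in short windows, and no binding was measured.

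The libraries held 9744075 (GFP growth), 9235281 (GFP differentiation), 11068073 (Twist2 growth) and 12362290 reads (Twist2 differentiation). Levels are CPM, the reads of a gene scaled to a common library total. A log2 ratio is that of CPM + 1, which understates ratios of low genes. A gene is called higher or lower where the ratio is at least 2-fold and the higher library has at least 10 CPM. Bracketed intervals are 95% Clopper-Pearson counting intervals of the log2 ratio without the added 1 CPM, which cover counting error only. Of the markers of the labelled cells, 5 of 6 myoblast markers and 6 of 7 differentiated muscle markers were listed, and the latter summed to 272 CPM in GFP growth, 45407 in GFP differentiation, 27.6 in Twist2 growth and 6615 CPM in Twist2 differentiation medium. All 6 proliferation markers were listed and summed to 753, 49.2, 1137 and 201 CPM in the same order. The table listed 0 of the endothelial, leukocyte, Schwann and adipocyte markers, 2 of 4 pericyte markers, and 2 of 6 fibro-adipogenic markers, whose sum was 12.9, 1.19, 43.5 and 67.9 CPM. These last 2 went opposite ways in Twist2 cells. From growth to differentiation medium Dcn went from 10.6 to 64.6 CPM and Ly6a from 32.9 to 3.32 CPM.

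The table is itself a selection, and this bears on every count. Each listed gene differed at least 2-fold from GFP growth medium in at least 1 of the 3 comparisons in the authors' deposited table. Every listed gene also had at least 10 CPM in 2 or more libraries. Of the 52 members, 26 passed 2-fold in GFP differentiation medium, 32 in Twist2 differentiation medium and 5 in Twist2 growth medium. Only through the GFP differentiation library were 19 listed, only through Twist2 differentiation 23, and only through Twist2 growth 1. GENCODE M21 holds 176 protein-coding genes with such names; the rest were not analysed here. Listed were 6 of 11 SR protein genes, 8 of 20 hnRNP genes, 4 of 12 Snrp genes, 4 of 13 Prpf genes, 13 of 39 Rbm genes, 9 of 16 tissue splicing regulators (Mbnl, Celf, Rbfox, Khdrbs and Qk) and 2 of 16 Dhx genes. Also listed were 6 Ddx genes, beside 37 so named in GENCODE M21. Of these 6, Ddx26b is named Ints6l there and is counted neither in the 37 nor in the 176. None of the 9 SF3 genes and none of the 3 Igf2bp genes was listed, so nothing is said of them.

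Rbm24 and Rbfox1 had the widest range of all members. Rbm24, an RNA-binding protein of striated muscle that promotes muscle-specific splicing (chromosome 13, 46418434 to 46431095, plus strand, GRCm38), stood at 10.7 CPM in GFP growth, 170 CPM in GFP differentiation, 0.452 CPM in Twist2 growth and 68.1 CPM in Twist2 differentiation medium. It was thus high in both differentiation libraries and lowest in Twist2 growth medium, where it had 5 reads. The log2 ratio of differentiation to growth was 3.87 in GFP cells (interval 3.70 to 4.29) and 5.57 in Twist2 cells (interval 6.01 to 8.86, which lies above the ratio because of the added 1 CPM). Rbfox1, a splicing regulator of muscle and neurons (chromosome 16, 5885355 to 7411526, plus strand), stood at 3.28, 76.8, 1.08 and 19.3 CPM in the same order of libraries. Its ratio was 4.18 in GFP cells (interval 4.04 to 5.11) and 3.28 in Twist2 cells (interval 3.32 to 5.12).

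Rbm38, a close relative of Rbm24, followed the same order of libraries over a narrower range. It stood at 18 CPM in GFP growth, 66.8 in GFP differentiation, 13.6 in Twist2 growth and 27.3 CPM in Twist2 differentiation medium, with ratios of 1.84 in GFP cells (interval 1.65 to 2.15) and 0.96 in Twist2 cells (interval 0.73 to 1.30). Rbm20, which regulates the splicing of titin, stood at 244, 298, 95.6 and 189 CPM. It was lowest in Twist2 growth medium and its ratio there against GFP was -1.34 (interval -1.46 to -1.25), while in differentiation medium it was -0.66. In each of these 4 genes the Twist2 library was below the GFP library in both media.

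Celf2 and Qk differed by virus more than by medium. Celf2, a CELF protein that sets developmental splicing, stood at 483 and 551 CPM in the GFP libraries (growth, then differentiation) and at 140 and 182 CPM in the Twist2 libraries. Qk (quaking), a STAR-family RNA-binding protein, stood at 481 and 592 CPM with GFP and at 219 and 207 CPM with Twist2. Neither gene was called in either differentiation comparison, with ratios of 0.19 and 0.38 for Celf2 and of 0.30 and -0.08 for Qk. Against GFP, Celf2 was lower with Twist2 by -1.78 in growth medium (interval -1.87 to -1.71) and by -1.59 in differentiation medium (interval -1.67 to -1.52). For Qk these ratios were -1.13 (interval -1.21 to -1.07) and -1.51 (interval -1.58 to -1.45), and with median-of-ratios size factors (a scaling to the typical listed gene) the growth medium call of Qk was lost.

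**Figure D1:**
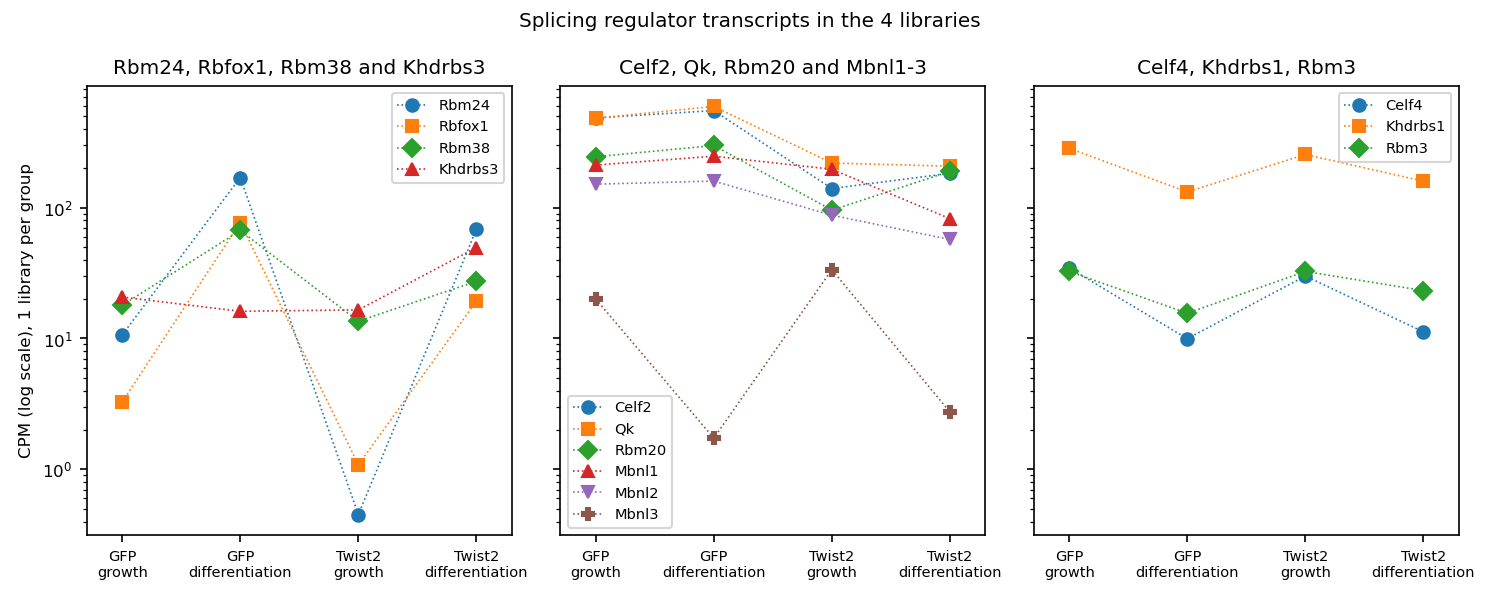
CPM (log scale) of 13 named regulators in the 4 libraries, 1 point per library, with dotted lines joining the points of a gene. Rbm24 runs from 0.452 CPM in Twist2 growth to 170 CPM in GFP differentiation medium, and Celf2 and Qk are lower in both Twist2 libraries.

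The 3 muscleblind genes each had a different pattern. Mbnl1 and Mbnl2 encode proteins that favour adult splice patterns and are known from myotonic dystrophy, and Mbnl3 is a relative associated with proliferating myoblasts. Mbnl1 stood at 211 CPM in GFP growth, 247 in GFP differentiation, 196 in Twist2 growth and 82.3 CPM in Twist2 differentiation medium, so 3 libraries were close and the last was low. Mbnl2 stood at 151, 159, 87.4 and 57.0 CPM, lower in both Twist2 libraries. Mbnl3 stood at 20.0, 1.73, 33.5 and 2.75 CPM, 11.6-fold lower after differentiation in GFP cells and 12.2-fold lower in Twist2 cells (ratios -2.94, interval -4.37 to -2.79, and -3.20, interval -4.16 to -3.10). Per kilobase of the longest annotated transcript, Mbnl3 made up 6.26% of the listed Mbnl level in GFP growth, 0.513% in GFP differentiation, 12.5% in Twist2 growth and 2.33% in Twist2 differentiation medium. The share of Mbnl1 moved little, between 54.3% and 60.2%.

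Of the remaining tissue regulators, Khdrbs3 alone was highest in Twist2 differentiation medium. Khdrbs3 (also known as T-STAR or SLM2) stood at 20.7 CPM in GFP growth, 16.1 in GFP differentiation, 16.5 in Twist2 growth and 49.5 CPM in Twist2 differentiation medium. Its differentiation ratio was -0.34 in GFP cells (interval -0.68 to -0.05) and 1.53 in Twist2 cells (interval 1.34 to 1.83). In GFP cells its direction depends on scaling, at -0.011 with size factors and 0.42 with reads outside the listed genes. Khdrbs3 was listed only through its high level in Twist2 differentiation medium. Its relative Khdrbs1 (Sam68), a signal-responsive splicing regulator, stood at 283, 132, 254 and 159 CPM and was low in both differentiation libraries. Celf4 did the same at 34.6, 9.96, 30.0 and 11.2 CPM. As a share of the 2 listed Khdrbs genes per kilobase, Khdrbs3 went from 7.83% in Twist2 growth to 28.9% in Twist2 differentiation medium, beside 8.72% and 13.8% in the GFP libraries.

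Differentiation of the GFP cells asked how the splicing machinery moved as myoblasts left growth medium. All 4 listed Sm protein genes, 5 of 8 hnRNP genes and 2 of 6 SR protein genes were called lower after 5 days, while Rbm24, Rbfox1, Rbm38, Ddx19b and Prpf19 were called higher. Of the 52 members, 5 were called higher (9.62%, against 32.6% of all listed genes) and 21 lower (40.4%, against 40.9%). The share lower was thus close to that of the table and is no result about these genes. For the 19 members listed through this comparison alone, a 2-fold change was fixed by the selection. The median ratio of members was -0.67, that of all listed genes -0.40. In all, 40 members had a ratio below 0 and 12 above. These 2 counts were not made over all listed genes and are no result about the members.

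All 4 listed Sm protein genes, which encode parts of the ring around spliceosomal RNAs, were called lower in GFP cells (median -1.25, from -1.64 to -1.0). All 4 were listed through this comparison alone, so a 2-fold change was fixed by the selection and only its direction was free. Snrpf went from 72.7 to 27.1 CPM, Snrpe from 61.6 to 28.0 CPM and Snrpd1 from 47.4 to 23.2 CPM. Snrpg went from 20.7 to 5.96 CPM and was the lowest of the class. Of 8 hnRNP genes, 5 were called lower (Hnrnph1, Hnrnpa0, Hnrnpm, Hnrnpd and Hnrnpf) and 0 higher (median -1.02). Of these 5, all but Hnrnph1 were likewise listed through this comparison alone. Hnrnph1, a regulator that binds G-rich RNA, had 439 CPM before and 214 CPM after (-1.04), and Hnrnpm had 334 and 158 CPM (-1.07). Hnrnpa1, at 14.1 and 11.5 CPM, was furthest from the class median (-0.27, interval -0.67 to 0.08). Its level is uncertain, because its longest transcript has 9 other genes, all pseudogenes, at 95% identity or more over at least 300 bases. Hnrnpa3 has 27 such genes and Hnrnpf has 8, and in all 9 of the 52 members have at least 1.

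SR proteins, which bind exonic enhancers, had 2 of 6 genes called lower in GFP cells and 0 higher (median -0.74). Srsf1 had 339 CPM before and 222 CPM after (-0.61) and Srsf11 had 173 and 139 CPM (-0.31), neither called. Srsf7 went from 130 to 62.4 CPM (-1.05). Srsf9 was lowest, with 44.3 CPM before and 12.0 CPM after (-1.80, interval -2.20 to -1.58). It was listed through this comparison alone, so a 2-fold change was fixed by the selection. Among Rbm genes, 4 of 13 were called lower, and 2, Rbm24 and Rbm38, higher. Rbm14, a paraspeckle protein, went from 51.6 to 16.4 CPM, Rbm7, a component of the nuclear exosome targeting complex, from 71.2 to 30.4 CPM, and Rbm43 from 11.3 to 2.71 CPM. Rbm3, known as a cold-induced protein, went from 32.5 to 15.6 CPM, and 4 near-identical genes make its level uncertain.

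The spliceosomal ubiquitin ligase Prpf19 went the other way and had the highest CPM per kilobase of all members in both differentiation libraries. It stood at 304 CPM in GFP growth, 755 in GFP differentiation, 307 in Twist2 growth and 542 CPM in Twist2 differentiation medium, high in both differentiation libraries (1.31 in GFP cells, interval 1.25 to 1.38, and 0.82 in Twist2 cells, interval 0.76 to 0.88). Prpf39 (-0.29) and Prpf4b (-0.15) were not called in GFP cells. Of the helicase genes, Dhx34, which acts in nonsense-mediated decay, went from 58.3 to 13.5 CPM (-2.03) and Ddx39b, a helicase of mRNA export, from 224 to 99.4 CPM (-1.16). Ddx11, a DNA helicase despite its name, went from 18.9 to 6.06 CPM. Ddx19b, another export helicase, was higher (16.9 to 36.6 CPM, 1.07), and Dhx36, which unwinds G-quadruplexes, stood at 146 and 142 CPM.

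These lower calls depend on scaling. Listed genes took 39.3% of the reads before and 65.1% after GFP differentiation, and 11 of the 21 lower calls lay within 0.25 of the 2-fold threshold on the log2 scale. With size factors 8 members were lower, among them 2 Sm protein, 0 hnRNP and 1 SR protein gene, and with libraries scaled to the reads outside the listed genes 3 were lower (0 Sm protein, 0 hnRNP and 1 SR protein gene) and 10 higher, with a member median of 0.12. The medians of the SR, Prpf, Rbm and Ddx classes were then above 0 (0.05, 0.56, 0.17 and 0.37), and that of the Prpf class (0.12) already with size factors. The genes called lower under all 3 scalings were Srsf9, Dhx34 and Mbnl3, and all 5 higher calls (Rbm24, Rbfox1, Rbm38, Prpf19 and Ddx19b) were made under each. Both other scalings raised ratios here (the median of all listed genes by 0.34 and 0.78), so they could hardly remove a higher call. The proliferation markers given above went from 753 to 49.2 CPM between the same libraries, and their part in the ratios of the Sm, hnRNP and SR genes was not tested.

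**Figure D2:**
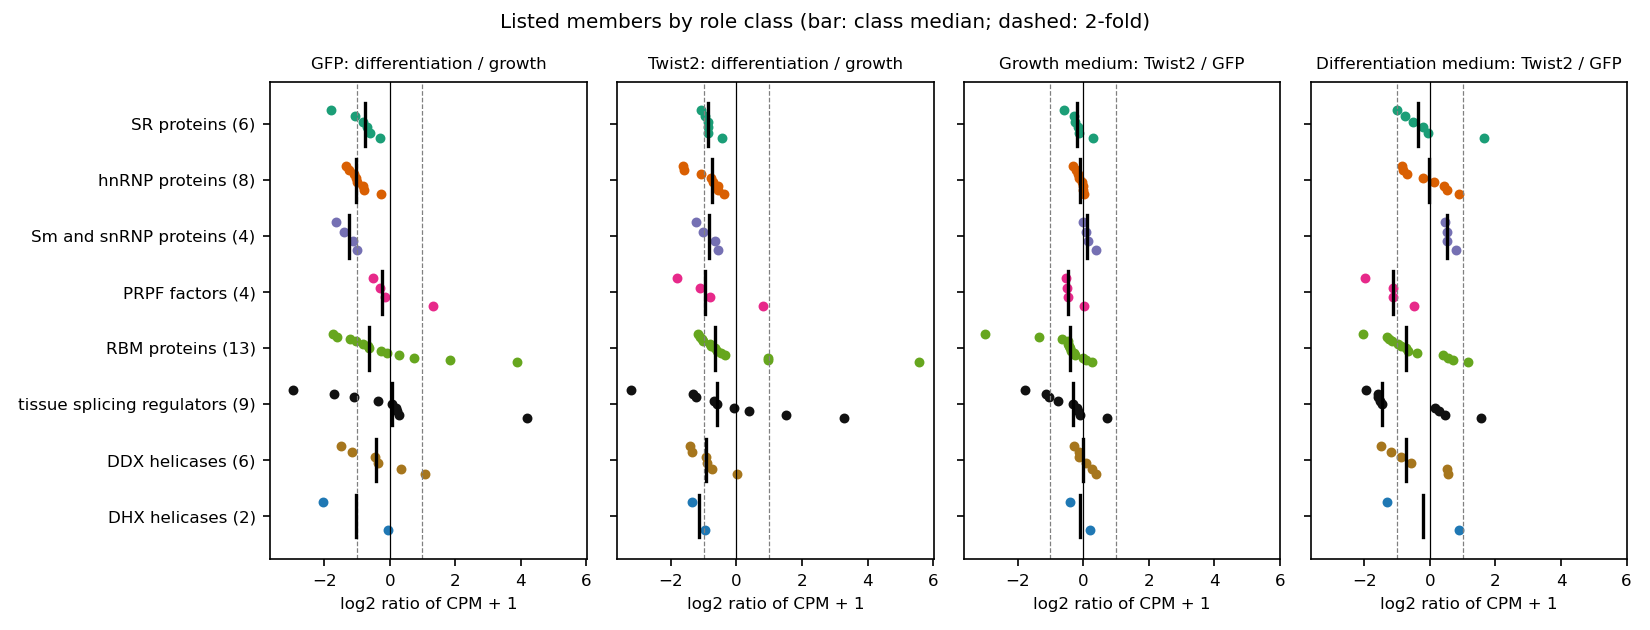
Log2 ratios of CPM + 1 of the 52 members by role class (number of listed genes in brackets) in the 4 comparisons. Each point is a gene, the bar is the class median and dashed lines mark 2-fold. The 4 Sm protein genes lie between -1.64 and -1.0 in GFP differentiation and above 0 in the differentiation medium comparison of Twist2 with GFP.

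Differentiation of the Twist2 cells asked whether the same genes moved when Twist2 was forced. Rbm24, Rbfox1 and Khdrbs3 were higher after 5 days and 18 members were lower. The higher calls were 3 of 52 (5.77%, against 26.5% of all listed genes) and the lower calls 34.6% (against 24.5%). The median ratio of members was -0.80 and that of all listed genes -0.22. Ratios below 0 were found in 44 of 52 members. That count was not made over all listed genes and is no result about the members. Of the members, 8 were called lower in both, 13 in GFP cells alone and 10 in Twist2 cells alone, and the difference between the responses was not tested. These joint counts were not made over all listed genes. Moreover, 19 members were listed only through GFP differentiation and 23 only through Twist2 differentiation. Of the lower calls, 11 of 21 in GFP and 10 of 18 in Twist2 cells lay within 0.25 of the threshold (log2). The overlap is thus no result about these genes. The 2 comparisons share no library, but all members were selected against GFP growth medium.

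The 8 genes lower in both were Snrpf, Snrpg, Hnrnph1, Ddx11, Celf4, Rbm14, Dhx34 and Mbnl3. Hnrnph1 went from 401 to 132 CPM in Twist2 cells (-1.60, interval -1.69 to -1.53). The 10 lower in Twist2 cells alone included Prpf39, Rbm26, Rbm39, Rbm41, Hnrnpa1, Hnrnpa3, Mbnl1, Srsf10 and Ddx26b. Prpf39, a protein of the U1 particle, went from 47.8 to 13.0 CPM in Twist2 cells (-1.80, interval -2.14 to -1.62), beside 66.2 and 53.9 CPM in GFP cells (-0.29). Rbm39, a coactivator related to the U2AF splicing factor, went from 221 to 101 CPM (-1.12), beside 306 and 199 CPM. Hnrnpa3 went from 51.3 to 15.8 CPM (-1.64), and Ddx26b, today named Ints6l, from 12.1 to 3.88 CPM (-1.42).

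Scaling moved these counts too, though less. With the reads outside the listed genes 7 members were lower and 6 higher, and with size factors 16 were lower and 5 higher. The 7 genes lower under all 3 scalings were Mbnl3, Prpf39, Hnrnpa3, Hnrnph1, Celf4, Dhx34 and Ddx11, and Rbm24, Rbfox1 and Khdrbs3 were higher under each. Both other scalings raised ratios here too (the median of all listed genes by 0.04 and 0.25), which could hardly remove a higher call. Every class median stayed below 0 in Twist2 cells under the 3 scalings.

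The difference of the responses (the Twist2 ratio minus the GFP ratio) had a median of -0.17 over members and 0.19 over all listed genes. It was at least 1 for 4 of 52 members, against 958 of the 3760 listed genes. The 4 were Khdrbs3 (1.87), Rbm24 (1.70), Srsf9 (1.35) and Rbm43 (1.09), followed by Hnrnpa0 (0.87). Srsf9 had 12.0 CPM after differentiation in GFP cells but stood at 54.5 and 39.7 CPM in Twist2 cells, and Hnrnpa0 at 129 and 99.0 CPM there, beside 128 and 53.6 CPM with GFP. The difference was -1 or lower for 5 of 52 members, against 473 of the 3760 listed genes. The 5 were Rbm41 (-1.78), Ddx26b (-1.76), Prpf39 (-1.51), Mbnl1 (-1.47) and Ddx19b (-1.04). Of the genes named here for their difference, all but Rbm24 were listed through only 1 of the 2 differentiation libraries. A large difference was thus partly set by the selection. Rbm41 stood at 20.8 CPM in GFP growth, 35.3 in GFP differentiation, 17.3 in Twist2 growth and 7.85 CPM in Twist2 differentiation medium, so it was highest and lowest in the 2 differentiation libraries.

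**Figure D3:**
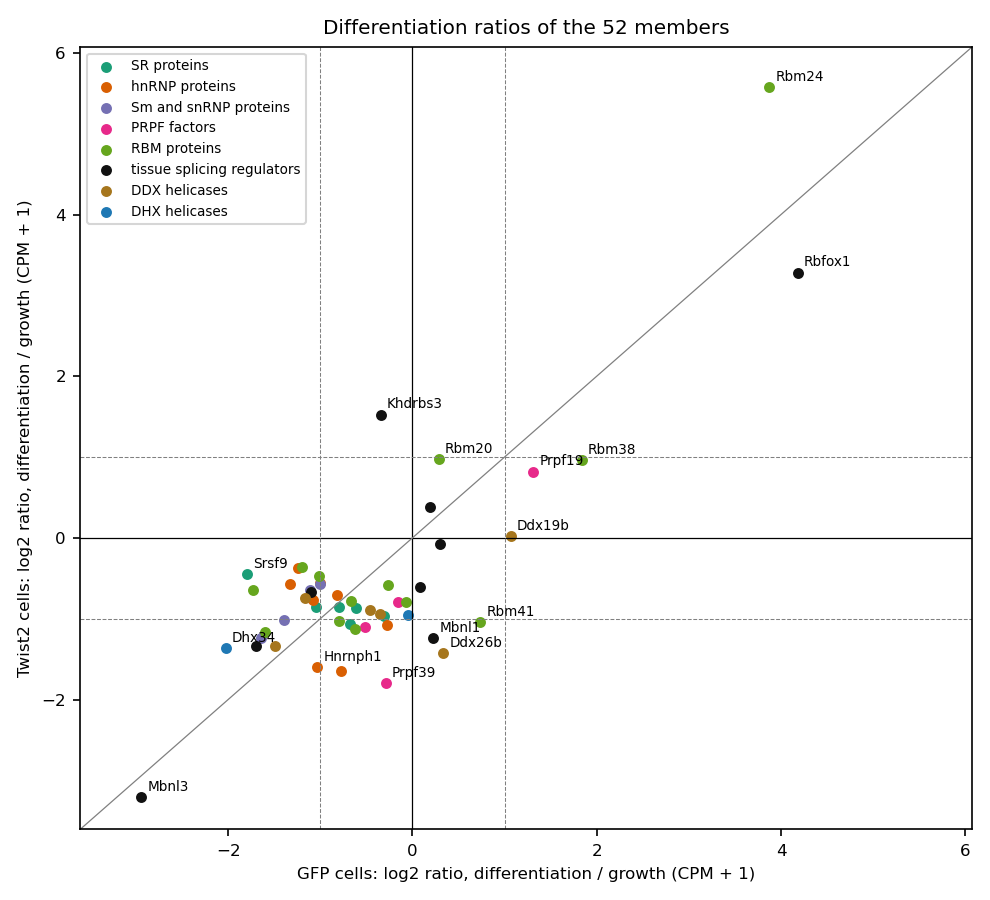
Log2 ratio of differentiation to growth in GFP cells (horizontal) and Twist2 cells (vertical) for the 52 members, coloured by role class, with the line of equal ratios and dashed lines at 2-fold. Rbm24, Rbfox1 and Mbnl3 lie far from 0 on both axes, Khdrbs3 lies above the line, and Mbnl1, Rbm41, Ddx26b and Prpf39 lie below it.

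Twist2 against GFP in growth medium asked what forced Twist2 did before differentiation. Most members differed by less than 2-fold, and Rbm24, Celf2, Rbm20 and Qk were lower with Twist2. Of 51 members with at least 10 CPM in either library, 0 were called higher (0%, against 5.21% of all listed genes) and 4 lower (7.84%, against 10.6%), so neither share was above that of the table. Of the 9 tissue splicing regulators 2 were called. The 4 were Rbm24 (-3.01, interval -6.22 to -3.29), Celf2 (-1.78), Rbm20 (-1.34) and Qk (-1.13). Mbnl2 (-0.78) and Rbm26 (-0.64) were next. Rbfox1 was under the minimum of 10 CPM in both libraries. Mbnl3 had the highest ratio (0.72, interval 0.49 to 1.0), then Ddx11 and Snrpg (0.40 each), Srsf9 (0.29), Ddx26b (0.27) and Rbm14 (0.26). The hnRNP genes lay between -0.31 and 0.02.

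The median over members was -0.19, that over all listed genes -0.10, and with size factors the members' median was 0.05. Celf2 and Rbm20 were called lower under all 3 scalings. Under the other 2 scalings Rbm24 missed the minimum of 10 CPM, with ratios of -2.80 (size factors) and -2.88 (reads outside the table). Beside these ratios, the differentiated muscle markers summed to 272 CPM with GFP and 27.6 CPM with Twist2, and the fibro-adipogenic markers Dcn and Ly6a to 12.9 and 43.5 CPM, and their part in the ratios was not tested. In bulk RNA, fewer cells of a kind and less RNA per cell cannot be told apart.

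Twist2 against GFP in differentiation medium gave a wide spread in both directions. Tissue regulators, Prpf39 and several Rbm genes were lower with Twist2, and Srsf9 and Khdrbs3 were higher. Of 49 members with at least 10 CPM in either library, 2 were called higher (4.08%, against 25.4% of all listed genes) and 15 lower (30.6%, against 25.2%). The median was -0.55 over members and -0.06 over all listed genes. A single member, Khdrbs3, had its highest level in Twist2 differentiation medium, and 25 members had their lowest there. Such counts were not made over all listed genes, and 23 members were listed only through that library. These 2 counts are therefore no result about the members.

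Of the 9 tissue splicing regulators, 5 were lower with Twist2 in differentiation medium (median -1.47): Rbfox1 (-1.94, interval -2.21 to -1.78), Celf2 (-1.59), Mbnl1 (-1.57, interval -1.69 to -1.48), Qk (-1.51) and Mbnl2 (-1.47). Khdrbs3 was higher (1.56, interval 1.36 to 1.89). Among Rbm genes, Rbm41 (-2.04, interval -2.51 to -1.84), Rbm24 (-1.30), Rbm38 (-1.26) and Rbm25 (-1.14) were lower. Prpf39 (-1.97) and the kinase gene Prpf4b (-1.12) were lower too, as were the helicase genes Dhx36 (-1.29) and Ddx19b (-1.19). So was Ddx26b (-1.49), which is today named Ints6l. All 15 lower calls were made under each of the 3 scalings. Both other scalings lowered ratios in this comparison (the median of all listed genes shifted by -0.06 and -0.57). They could therefore hardly remove a lower call. Moreover, Prpf39, Prpf4b, Rbm25, Rbm41, Mbnl1, Mbnl2, Dhx36 and Ddx26b were listed only through their low level in Twist2 differentiation medium. That library is the numerator here, so their lower calls are no separate result.

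The Sm protein genes lay on the other side, from 0.46 to 0.81 (median 0.53), and none was called. With the reads outside the table that median was -0.05, so its direction depends on scaling. These genes were listed through their low level in GFP differentiation medium, the denominator here, so their side is no separate result. Srsf9 had the highest ratio (1.65, interval 1.42 to 2.03), then came Khdrbs3, Dhx34 (0.88), Hnrnpa0 (0.87), Snrpg (0.81) and Rbm14 (0.70), while Rbm43 (1.16) was under the minimum of 10 CPM. Srsf9 was called under all 3 scalings, and Khdrbs3 missed the threshold under the outside scaling, at 0.99. Srsf9 was likewise listed only through its low level in GFP differentiation medium, the denominator. Khdrbs3 was listed only through its high level in Twist2 differentiation medium, the numerator. Neither higher call is thus a separate result. In this medium the differentiated muscle markers summed to 45407 CPM with GFP and 6615 CPM with Twist2, the fibro-adipogenic markers to 1.19 and 67.9 CPM, and the proliferation markers to 49.2 and 201 CPM. Their part in the ratios of the tissue regulators and of the other members was not tested.

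**Figure D4:**
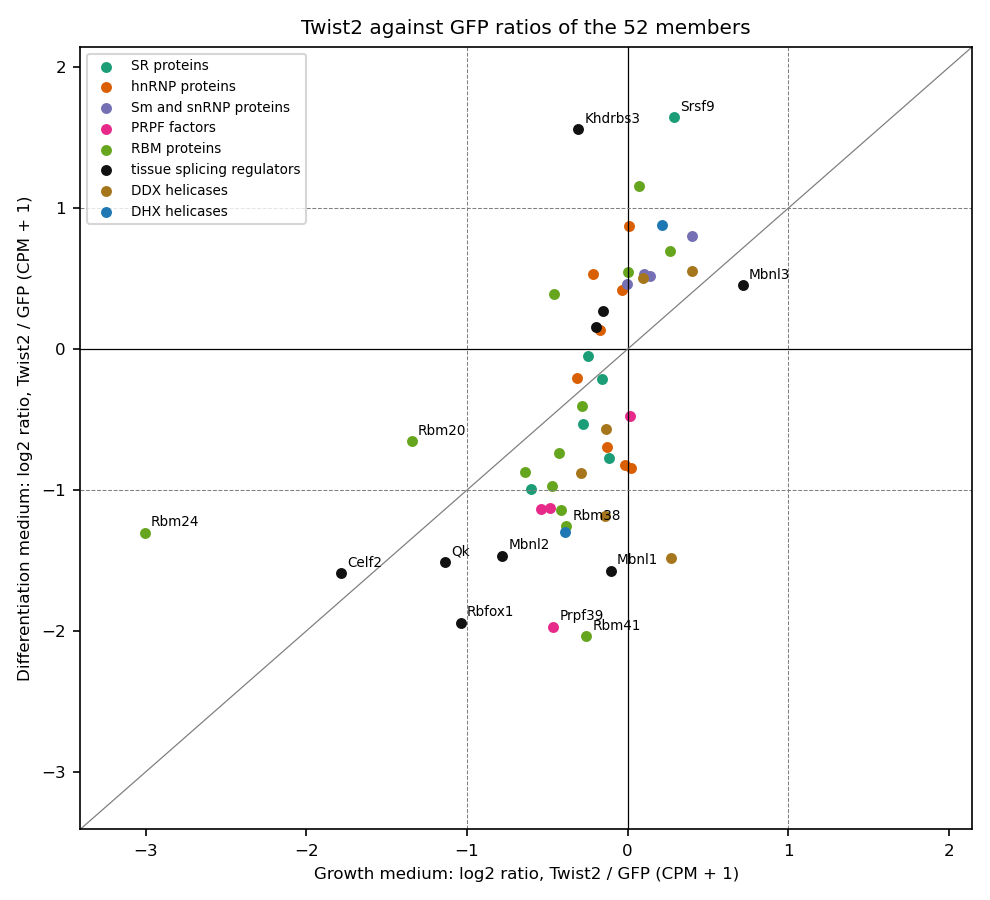
Log2 ratio of Twist2 to GFP in growth medium (horizontal) and differentiation medium (vertical) for the 52 members, coloured by role class, with the line of equal ratios and dashed lines at 2-fold. Celf2, Qk and Rbm24 lie past 2-fold on the lower side of both axes, and Srsf9 and Khdrbs3 are past 2-fold on the higher side in differentiation medium alone.

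Transcript length and base composition ran along with some of these ratios. Across the 52 members, Spearman's rho between the longest annotated transcript and the ratio was 0.43 in GFP differentiation, -0.14 in Twist2 differentiation, -0.31 for Twist2 in growth medium and -0.51 for Twist2 in differentiation medium. Over the 3748 listed genes with an annotated transcript these values were -0.01, -0.13, -0.21 and -0.21. The 26 members with transcripts shorter than the median of 3964.5 bases had a median ratio of 0.33 for Twist2 in differentiation medium, and the 26 longer ones -0.79, beside 0.31 and -0.38 for all listed genes divided at the same length. For GC content of the transcript, rho was 0.38 over members and 0.31 over all listed genes in that comparison. Genes share their libraries and are not independent replicates, and the part of length or GC content in the ratios was not tested.

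**Figure D5:**
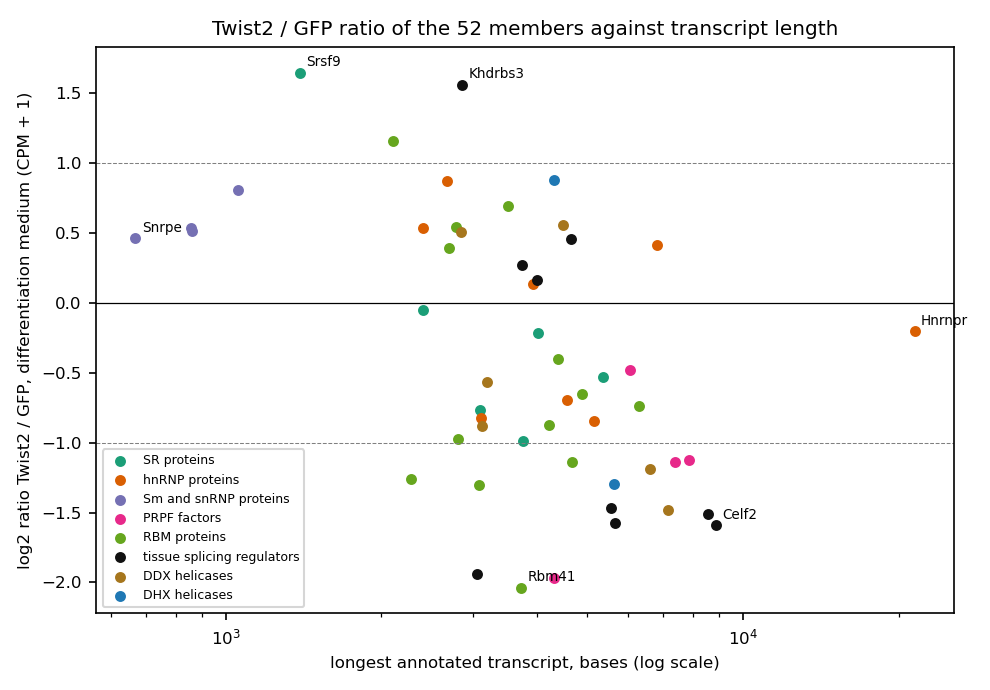
Log2 ratio of Twist2 to GFP in differentiation medium against the length of the longest annotated transcript (log scale), 1 point per member, coloured by role class. The short Sm protein genes lie above 0, and Celf2 (8856 bases) and Qk (8547 bases) are among the long transcripts below it.

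Splicing genes with other names gave counts of the same kind. Of 104 such names, 23 were listed, with 1 higher and 10 lower in GFP differentiation (median -0.79) and 1 higher and 10 lower in Twist2 differentiation (median -0.98). Over all listed genes 32.6% were higher and 40.9% lower in the first comparison, and 26.5% and 24.5% in the second. Scaling moved these counts as well: in GFP differentiation 4 were lower with size factors and 2 with reads outside the listed genes (median -0.0061), and in Twist2 differentiation 5 were lower with the latter. Srpk3, a muscle kinase of SR proteins, was the higher gene in both, at 20.2 CPM in GFP growth, 149 in GFP differentiation, 1.08 in Twist2 growth and 65.6 CPM in Twist2 differentiation medium, the same order of libraries as Rbm24. Luc7l3 (-0.06) and Srek1 (-0.12) came next in GFP cells. Ptbp1, a repressor of neuronal and muscle exons, stood at 309, 81.6, 465 and 183 CPM, and with Ptbp3 (-1.94) and Fmr1 (-1.59) had the lowest ratios in GFP cells (-1.91). In the 2 comparisons of Twist2 with GFP, 0 were higher and 1 lower in growth medium, and 1 higher and 8 lower in differentiation medium, where the reads outside the listed genes gave 0 higher and 13 lower.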

How the data were processed

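RNA was sequenced in 4 libraries, 1 per group. The authors deposited 1 table of 3760 genes with CPM (counts per library total) in each library and log2 ratios of each group to GFP growth medium. The deposited log2 values equal the log2 ratio of CPM + 1. TopHat2 2.0.0, DESeq2 1.6.3 and mouse build GRCm38 are named per the submitters' processing notes; which program counted reads, with which annotation and whether by strand, is not given in the sources used here, so reads of antisense or near-identical genes could not be separated. Every deposited CPM value gave a whole number of reads within 0.01 reads, and ratios of these reads carry exact Clopper-Pearson 95% intervals. No molecular identifiers are described, so several reads can stem from 1 molecule and the intervals cover counting error only. With 1 library per group no test across samples was possible and no count model was fitted. A call needed a 2-fold ratio of CPM + 1 and at least 10 CPM in the higher library. Alternatives were a pseudocount of 0.1 or 5 CPM, no minimum, median-of-ratios size factors, and scaling to the reads outside the listed genes.

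The members, gene lists and tests were chosen with earlier results of these data known. Genes were named by rule: the listed Mbnl, Celf, Rbfox, Khdrbs and Qk genes with Rbm20, Rbm24, Rbm38 and Rbm3, the 6 highest and 6 lowest ratios of each comparison, 2 genes of highest mean CPM and the one furthest from the median in each other class, the 3 highest and 3 lowest of each other list, and the 5 largest and 5 smallest differences of responses. Further members were named where they made up a count, after their values were seen. Lengths, GC content and near-identical genes came from GENCODE M21 and promoters from RefSeq (GRCm38.p6). Python 3.11.15, pandas 2.3.3, numpy 2.4.6 and scipy 1.17.1 were used, and the ratio and interval steps were tested on simulated data. One gene that the rule names is not reported here.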

Additional observations from a re-analysis of the deposited data

Results flagged for a closer look

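On the CPM scale, in 3 members the differentiation ratio pointed one way in GFP cells and the other way in Twist2 cells, with both counting intervals away from equality. For Khdrbs3 the Twist2 ratio minus the GFP ratio was 1.87, lower after differentiation with GFP and higher with Twist2. The GFP direction of Khdrbs3 depends on scaling: its ratio was -0.34 in CPM, -0.011 with size factors and 0.42 with reads outside the listed genes. For Mbnl1 it was -1.47 and for Rbm41 -1.78, both higher with GFP and lower with Twist2, also under the other 2 scalings. All 3 genes were listed only through their level in Twist2 differentiation medium, which the selection set at least 2-fold from GFP growth medium. That library is the numerator of the Twist2 ratio, so the opposite directions are no separate result. With 1 library per group the difference was not tested.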

How the results depend on the processing

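Pseudocounts of 0.1 and 5 CPM, and no minimum CPM, left every member count within 1.5 times its value and every median of the 4 comparisons nearly in place. Scaling did not. In GFP differentiation, size factors gave 8 lower members in place of 21 and a median of -0.32 in place of -0.67, and reads outside the listed genes gave 10 higher, 3 lower and a median of 0.12. In Twist2 differentiation, size factors gave 5 higher members in place of 3, and reads outside the listed genes gave 6 higher, 7 lower in place of 18 and a median of -0.54 in place of -0.80. For Twist2 in growth medium, size factors gave 2 lower members in place of 4 and a median of 0.052 in place of -0.19. For Twist2 in differentiation medium, reads outside the listed genes gave 1 higher member in place of 2, 28 lower in place of 15 and a median of -1.14 in place of -0.55. These scalings moved the median of all listed genes by 0.34 and 0.78 in GFP differentiation; the cause was not tested. Of 156 ratios of named genes, 59 moved with size factors and 99 with reads outside the listed genes. A ratio counted as moved where it shifted by more than the distance from the middle of its counting interval to the end. No replicate could be left out, and no paired analysis was possible because each group had 1 library. Genes with few reads, such as Rbm24 with 5 reads in Twist2 growth medium, have wide intervals.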

Other observations

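RNA-binding proteins that act on mRNA stability and translation were mixed in direction. Of 40 such names 18 were listed, with 6 higher and 3 lower in GFP differentiation (median 0.02), 4 higher and 3 lower in Twist2 differentiation, 0 higher and 3 lower for Twist2 against GFP in growth medium, and 3 higher and 8 lower in differentiation medium. Over all listed genes the shares higher and lower were 32.6% and 40.9%, 26.5% and 24.5%, 5.21% and 10.6%, and 25.4% and 25.2% in the same order. In GFP differentiation the median was 0.36 with size factors and 0.81 with reads outside the listed genes (8 higher and 2 lower). For Twist2 in differentiation medium the latter gave 1 higher and 13 lower, and in growth medium size factors gave 1 higher and 1 lower. Cpeb4, a regulator of poly(A) tails, stood at 58.6 CPM in GFP growth, 260 in GFP differentiation, 31.7 in Twist2 growth and 50.6 CPM in Twist2 differentiation medium. Zfp36l1, which promotes decay of AU-rich mRNAs, stood at 16.0, 70.4, 10.7 and 114 CPM, highest with Twist2 after differentiation, while its relative Zfp36l2 stood at 104, 17.1, 181 and 84.9 CPM. Pabpc1, the main cytoplasmic poly(A)-binding protein, stood at 1659, 196, 1743 and 549 CPM and was low in both differentiation libraries.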
